A study of Mus musculus with 5 samples.

Results

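Cholesterol and fatty acid synthesis genes were followed in tumor-specific mouse CD4+ T cells as a list of 35 genes: the enzymes of the mevalonate and sterol pathways, their sterol-sensing regulators, 3 sterol transporters and the enzymes of fatty acid synthesis. Members were taken by gene symbol from the array annotation. Of the 35, 34 had at least 1 probe set annotated to that gene alone, 80 probe sets in all among the 45101 on the array, and Acat2 was not analysed here. One gene-level value was used per gene, from its brightest probe set, and 33 of the 34 genes (all but Scd1) were bright enough to be tested among 12860 genes. All cells came from Balb/c mice aged 7 to 12 weeks that carry a transgenic T cell receptor against the myeloma MOPC315 on a SCID background, which leaves them without other T and B cells. The activated group (3 arrays) was sorted as CD4+ GB113+ cells, at a purity of at least 95%, from pooled draining lymph nodes of 12 to 15 mice, 8 days after 100000 MOPC315 cells in 250 µl of Matrigel were placed under the skin. The naive group (2 arrays) held CD4+ cells of the same transgenic kind from pooled nodes of mice given no tumor. Each array stands for a separate experiment, and the number of arrays limits the precision of every value. A group given Matrigel alone was not analysed here, so the tumor and its carrier cannot be told apart.

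Cholesterol is built from acetyl-CoA through mevalonate, the isoprenoid farnesyl pyrophosphate, squalene and lanosterol. The membrane-bound factor SREBP2, encoded by Srebf2, is released to the nucleus when sterols in the endoplasmic reticulum are low and raises transcription of nearly every enzyme of that route, while its relative SREBP1, encoded by Srebf1, mainly drives fatty acid synthesis. Oxysterols act the other way through the LXR nuclear receptors, which raise the cholesterol exporters Abca1 and Abcg1. Dividing T cells need both sterols and fatty acids for new membrane, and this switch is known from T cells stimulated in culture.

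In the activated cells several enzymes of cholesterol synthesis rose and the cholesterol exporters fell. By limma, with Benjamini-Hochberg adjustment over all 12860 genes and a threshold of 0.05, 6 of the 33 tested members rose (Cyp51, Idi1, Fdps, Stard4, Hmgcs1 and Fdft1) and 2 fell (Abca1 and Abcg1). The background was 6.37% of genes called higher and 4.14% called lower, against 18.2% and 6.06% of the members. The 3 activated arrays lay above both naive arrays for 20 of the 33 members, and below both for 4, where the background was 20.3% and 20.7% of genes. The median log2 difference, activated minus naive on the scale of log2(intensity + 16), was 0.37 over the 33 members and -0.03 over all tested genes. Differences on this scale are smaller than true ratios for dim genes. These are bulk samples, so a transcript present in fewer cells and one present at a lower level per cell cannot be told apart. Of the 6 rises 5 were enzymes of the sterol route. Of 17 tested mevalonate and sterol enzymes 5 rose, 0 fell and 14 had groups that did not overlap, all with activated cells higher. Of the same 17 enzymes 10 had an unadjusted p under 0.05. The background for this and every such count below was 3127 of 12860 genes.

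**Figure D1:**
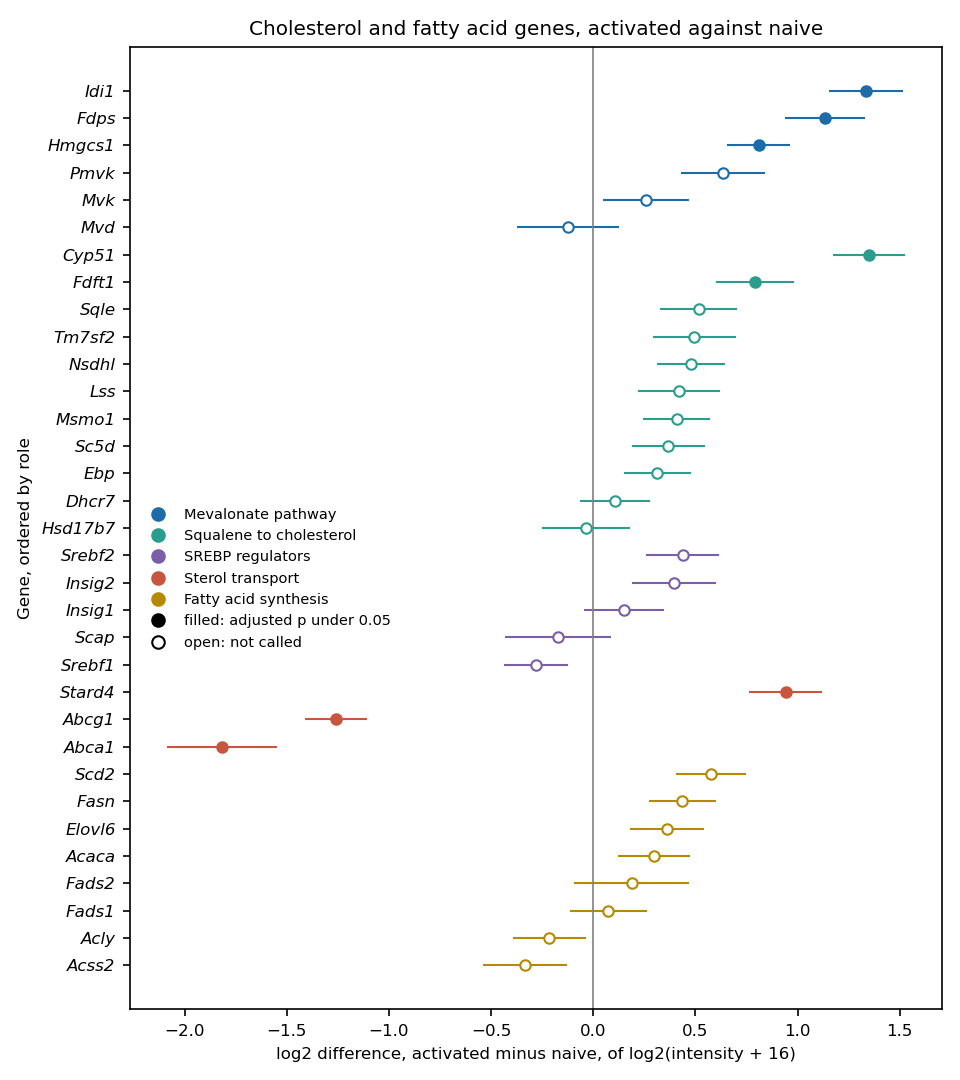
Log2 difference of each of the 33 tested members (points, activated minus naive; bars, standard error of the moderated test), coloured and ordered by role, with filled points for genes at an adjusted p under 0.05. Filled points to the right are 5 enzymes of the mevalonate and sterol routes and Stard4, those to the left are Abca1 and Abcg1, and the fatty acid enzymes are all open.

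The start regions of called members are shown because the sterol-responsive factor SREBP acts on such genes together with the factor NF-Y. The RefSeq promoter table (build GRCm38.p6, 250 bases before to 50 after each start) held 35 windows for 27 of the 35 members, Acat2 included, and 4 of the 8 called members were among them. The sequences run 5′ to 3′ on the gene's strand. Capitals mark the core of a sterol regulatory element (TCACNCCAC), the NF-Y box (ATTGG or its complement CCAAT) and the E-box (CACGTG), searched on both strands.
Hmgcs1 (chr13:119690101-119690400, plus strand): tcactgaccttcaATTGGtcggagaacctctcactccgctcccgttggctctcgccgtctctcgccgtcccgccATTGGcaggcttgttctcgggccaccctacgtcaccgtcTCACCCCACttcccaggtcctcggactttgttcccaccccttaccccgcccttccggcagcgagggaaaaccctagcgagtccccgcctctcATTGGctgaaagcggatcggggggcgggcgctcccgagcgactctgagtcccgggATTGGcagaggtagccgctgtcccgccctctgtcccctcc
Idi1 (chr13:8885356-8885655, plus strand): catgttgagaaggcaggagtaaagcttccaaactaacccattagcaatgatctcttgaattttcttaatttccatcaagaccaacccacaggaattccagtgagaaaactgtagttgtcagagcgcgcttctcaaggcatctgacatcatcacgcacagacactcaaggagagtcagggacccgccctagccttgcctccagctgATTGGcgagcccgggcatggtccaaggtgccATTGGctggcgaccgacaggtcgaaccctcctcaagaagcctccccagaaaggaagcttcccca
Cyp51 (chr5:4104648-4104947, minus strand): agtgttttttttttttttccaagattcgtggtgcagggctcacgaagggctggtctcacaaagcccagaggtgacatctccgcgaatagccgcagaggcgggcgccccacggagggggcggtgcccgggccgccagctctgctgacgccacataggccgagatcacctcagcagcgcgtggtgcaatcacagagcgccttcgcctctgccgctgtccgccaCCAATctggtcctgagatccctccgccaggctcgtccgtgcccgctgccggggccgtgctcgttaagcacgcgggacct
Abca1 (chr4:53159846-53160145, minus strand): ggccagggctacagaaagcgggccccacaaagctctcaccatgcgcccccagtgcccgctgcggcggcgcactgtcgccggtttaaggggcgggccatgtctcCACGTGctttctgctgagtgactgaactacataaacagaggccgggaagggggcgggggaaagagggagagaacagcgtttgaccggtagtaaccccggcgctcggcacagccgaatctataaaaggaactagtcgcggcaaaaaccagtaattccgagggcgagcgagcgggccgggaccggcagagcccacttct

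The Hmgcs1 window holds 1 sterol element core, starting 137 bases before the start site, among 4 NF-Y boxes. It was the single match to these letters among the 35 member windows (2.86%), and 1.24% of all 32851 windows in the table held it. NF-Y boxes stood in the windows of Idi1 (2 boxes) and Cyp51 (1 box), and Abca1 had none there and 1 E-box. Of all member windows 62.9% held an NF-Y box, against 37.4% of all windows. The GC box bound by Sp1 (GGGCGG or CCGCCC) stood in 77.1% against 35.7%, and the E-box in 20% against 7.15%. The NF-Y box stood in the windows of 3 of 3 members called higher and of 18 of 22 tested members not called. No motif contains another, some genes have several windows, and a match is a string of letters, not a bound site.

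The mevalonate enzymes gave 3 rises among 6 tested members. Hmgcs1, the synthase that makes HMG-CoA, gave 633.9, 745.1 and 713.8 in activated cells against 380.9 and 399.6 in naive cells, the order used from here on. Every activated array lay well above both naive ones, and the log2 difference was 0.81 ± 0.15 (SE, adjusted p = 0.0075, limma). Idi1, the isomerase that makes dimethylallyl pyrophosphate, had 356.3, 276.0 and 324.9 against 130.1 and 103.5. The activated mean was 2.73 times the naive mean, at a log2 difference of 1.34 ± 0.18 (SE, adjusted p = 0.0010, limma). Fdps, the farnesyl pyrophosphate synthase whose product also feeds protein prenylation, had 364.5, 383.8 and 422.4 against 136.1 and 208.3. The groups were apart although the naive arrays differed by more than the activated ones, with a log2 difference of 1.13 ± 0.19 (SE, adjusted p = 0.0041, limma).

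The kinases and the decarboxylase between Hmgcs1 and Idi1 were not called. Pmvk, the phosphomevalonate kinase, had 96.9, 103.0 and 77.4 against 62.0 and 45.8, groups apart at a log2 difference of 0.64 ± 0.21 (SE) that did not pass the test (adjusted p = 0.084, limma). Mvk, the mevalonate kinase, had 50.5, 47.9 and 49.4 against 45.4 and 32.4, also apart, with a log2 difference of 0.26 ± 0.21 (SE) that was not called. A second, dimmer probe set of Mvk lay at 0.66, apart and not called, and averaged probe sets gave 0.46, so the size depends on the probe set. Mvd, the mevalonate pyrophosphate decarboxylase, overlapped between the groups at 67.6, 47.6 and 34.9 against 61.4 and 48.2, and its log2 difference of -0.12 ± 0.25 (SE) had no settled sign. Leaving out activated replicate 2 ended the call of Hmgcs1 (log2 difference 0.76), as did leaving out naive replicate 1 (0.78). Idi1 and Fdps kept theirs in each of the 5 fits that left out 1 array. In the 2 of those fits that leave out a naive array, the lone naive array is assumed to vary like the activated ones, here and for every gene below. Fdps lay at 0.65 when its probe sets were averaged, a call that held. That average takes in a dim probe set, at 0.3 to 5.3, which lay below the filter on every array.

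The squalene and sterol enzymes gave 2 rises among 11 tested members, 10 of them with log2 differences above 0. Cyp51, the lanosterol demethylase, had 150.5, 155.4 and 177.4 against 52.3 and 54.5, with close values inside each group. Its activated mean was 3.02 times the naive mean and its log2 difference 1.35 ± 0.18 (SE, adjusted p = 8.1e-04, limma). Fdft1, the squalene synthase at the branch toward sterols, had 204.5, 260.1 and 268.9 against 116.4 and 153.1, a log2 difference of 0.79 ± 0.19 (SE, adjusted p = 0.025, limma). That call ended on leaving out activated replicate 2 (0.74), replicate 3 of the same group (0.72) or the first naive replicate (0.61), and with averaged probe sets (0.46). Averaging the probe sets also took the call from Cyp51, at 0.81. Both averages take in a dim probe set that did not pass the filter, at 1.8 to 11.8 for Fdft1 and 1.2 to 19.6 for Cyp51.

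The other enzymes of the route were not called. Sqle, the squalene epoxidase, had 133.1, 163.2 and 184.0 against 111.2 and 101.6, a log2 difference of 0.52 (adjusted p = 0.12, limma). The groups were likewise apart, with activated cells higher and no call, for Tm7sf2 (a sterol reductase, 0.49), Nsdhl (a dehydrogenase of sterol demethylation, 0.48), Lss (lanosterol synthase, 0.42), Msmo1 (the methylsterol oxidase, 0.41), Sc5d (the sterol desaturase, 0.37) and Ebp (the sterol isomerase, 0.31). Their adjusted p ran from 0.11 for Nsdhl to 0.28 for Ebp in limma. Dhcr7, which makes cholesterol from its last precursor, overlapped at 134.8, 139.8 and 154.4 against 137.1 and 126.1 (0.11 ± 0.17, SE). Hsd17b7, a sterol ketoreductase, overlapped too, at 46.2, 54.4 and 69.9 against 53.4 and 62.7.

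**Figure D2:**
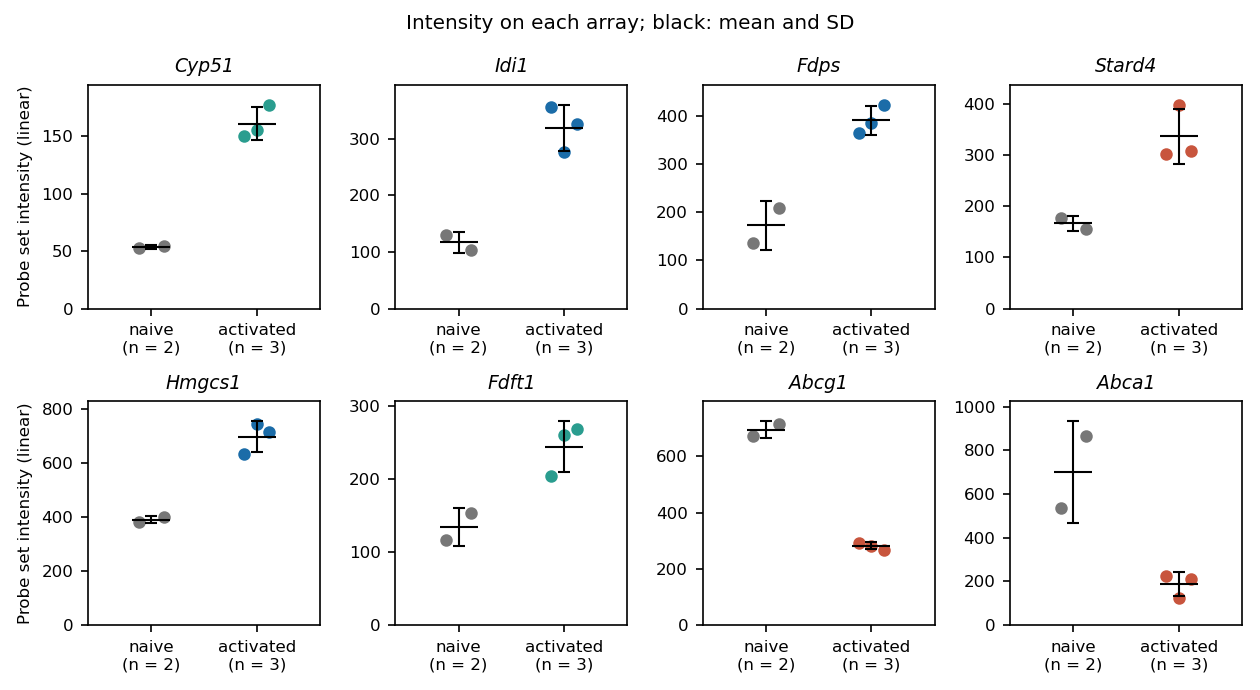
Probe set intensity on a linear scale for the 8 called members, with a point for each array and the mean and SD of each group in black (naive n = 2, activated n = 3). In the 6 genes that rose every activated point lies above both naive points, as for Cyp51 at 150.5 to 177.4 against 52.3 and 54.5, and in Abcg1 and Abca1 every activated point lies below.

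None of the 5 regulators passed the test, and 1 had an unadjusted p under 0.05. That was Srebf2, with 167.5, 208.2 and 175.9 against 143.7 and 119.3, activated arrays above naive ones and a log2 difference of 0.44 ± 0.18 (SE, adjusted p = 0.17, limma). Srebf1 lay the other way, at 274.1, 293.5 and 266.3 against 330.1 and 351.6, with groups apart and a log2 difference of -0.28 ± 0.16 (SE, adjusted p = 0.31, limma). Insig1, an endoplasmic reticulum anchor of SREBP and itself a known SREBP target, had 100.5, 113.6 and 130.8 against 88.1 and 116.4. The groups overlapped and the difference of 0.15 ± 0.20 (SE) was within the error. Its relative Insig2 overlapped too, at 173.7, 211.2 and 229.6 against 183.5 and 123.8 (0.39 ± 0.21, SE). The other tested probe sets of Insig2 lay at 0.13 and -0.09. Scap, the escort that carries SREBP to the Golgi, had 199.5, 187.2 and 181.0 against 147.7 and 310.3, and the naive arrays lay on either side of the activated ones, with a log2 difference of -0.17.

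Transport was the role in which all 3 tested members were called, 1 up and 2 down. Stard4, a soluble carrier of sterol between membranes and a known SREBP2 target, had 303.6, 398.9 and 308.5 against 177.1 and 156.2. It rose by 0.94 ± 0.18 on the log2 scale (SE, adjusted p = 0.0073, limma), a call lost without naive replicate 2, at 0.86. Abca1, which exports cholesterol to lipid-poor apolipoproteins, had 226.5, 124.2 and 210.9 against 534.8 and 863.9. It had the largest fall of the list, a log2 difference of -1.82 ± 0.27 (SE, adjusted p = 0.0017, limma), the naive mean being 3.74 times the activated mean. Abcg1, which exports cholesterol to lipoprotein particles, had 292.8, 282.8 and 268.3 against 674.0 and 715.9, with little spread in either group. Its log2 difference was -1.26 ± 0.15 (SE, adjusted p = 4.7e-04, limma), the smallest adjusted p among the members. The calls of Abca1 and Abcg1 held in each of the 5 fits that left out 1 array, and with averaged probe sets Abca1 lay at -1.04.

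No member of fatty acid synthesis was called at the gene level, where 2 of the 8 tested had an unadjusted p under 0.05. Scd2, a stearoyl-CoA desaturase, had 1232.8, 1308.2 and 1451.7 against 773.0 and 1014.4, groups apart at a log2 difference of 0.58 ± 0.17 (SE, adjusted p = 0.062, limma). Its 2 other probe sets passed the probe set fit described further on, at 1.18 and 1.25. At the gene level it passed with quantile normalization (0.57), with averaged probe sets (1.002), and with a block for the level of the bioC hybridisation control, by which the arrays split (0.62). Fasn, the fatty acid synthase, had 377.5, 320.9 and 349.1 against 231.7 and 276.7, also apart (0.44 ± 0.17, SE, adjusted p = 0.13, limma). Acaca, the acetyl-CoA carboxylase that feeds it, had 132.0, 112.7 and 123.0 against 89.8 and 103.7 (0.30 ± 0.18, SE). Elovl6, an elongase of saturated chains, had 112.3, 121.4 and 140.1 against 92.0 and 94.2 (0.36 ± 0.18, SE).

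The enzymes that supply acetyl-CoA had gene-level log2 differences below 0, neither of them called. Acly, the citrate lyase, had 771.6, 912.6 and 875.4 against 840.3 and 1166.3, with overlapping groups and a log2 difference of -0.21 ± 0.18 (SE). Its 4 tested probe sets split, 2 on either side of 0, a second bright one lying at 0.21, so its direction depends on the probe set. Acss2, the cytosolic acetyl-CoA synthetase, had 56.9, 85.3 and 72.8 against 100.6 and 87.0, activated arrays below naive ones (-0.34 ± 0.21, SE, adjusted p = 0.37, limma). The desaturases of polyunsaturated chains overlapped: Fads1 had 96.4, 114.0 and 85.7 against 90 and 94.9, and Fads2 lay near the filter at 9.9 to 20.8 against 7.9 and 15.3. Scd1 was dim on all arrays, at 10.2 to 15.7 against 9.6 and 9.2 on its brightest probe set, which was not tested. A second probe set of Scd1 passed the filter and lay at -0.08.

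**Figure D3:**
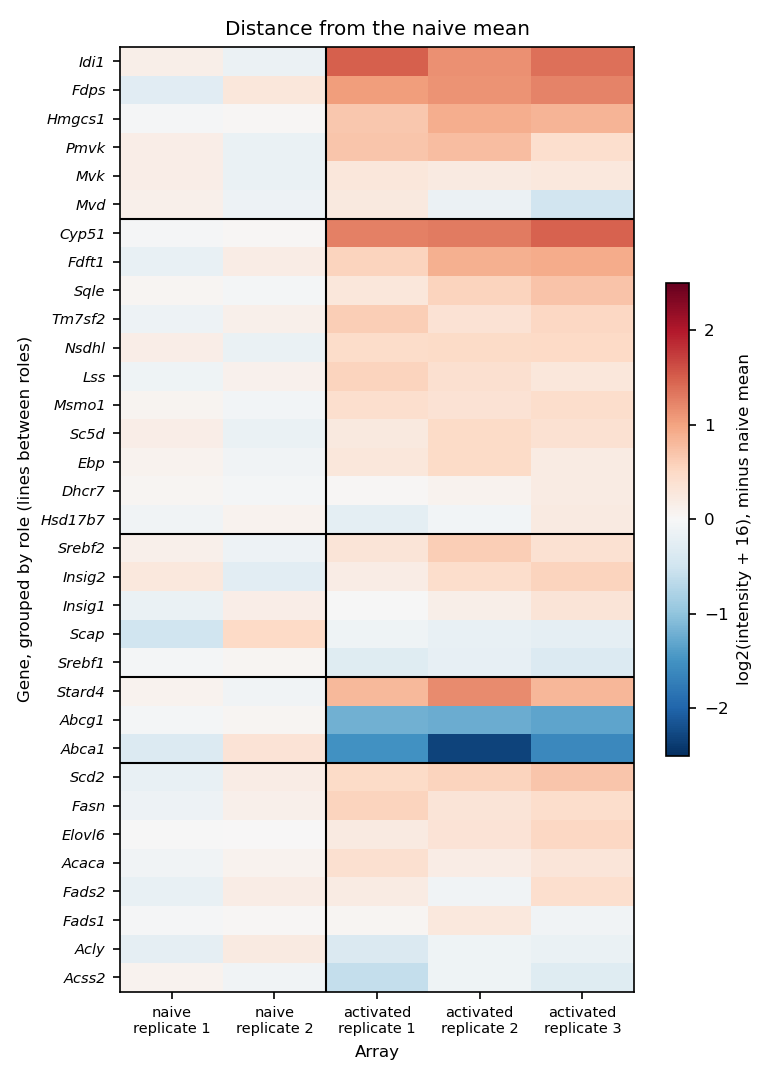
Distance of each array from the naive mean, on the scale of log2(intensity + 16), for the 33 tested members grouped by role (red higher, blue lower). In the 3 activated columns the median over members runs from 0.64 to 0.84 in the mevalonate block and from 0.42 to 0.47 in the sterol block, while Scap varies mainly between the 2 naive columns.

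Probe sets of the same gene were read next, in a fit over 29201 probe sets in which 4.8% were called higher and 2.94% lower. Of 72 tested member probe sets 14 were higher and 3 lower, and of the 39 beside those used for the genes 8 were higher and 1 lower. Probe sets of a gene share its RNA and are no replicates. Of 23 members with more than 1 tested probe set, 16 had all of them on 1 side of 0. For Hmgcs1, 4 of 5 were called, at 0.78 to 0.96, and a dim one lay at -0.02. For Fdft1 the probe set used for the gene and another were called, at 0.79 and 1.08, and a dim one lay at -0.15. For Stard4 all 3 were called, at 0.83, 0.94 and 1.1, and for Abcg1 both, at -1.26 and -1.81. The second probe set of Idi1 lay at 1.08 and that of Cyp51 at 0.85, neither called, and the other tested ones of Abca1, which are dim, lay at -0.86 and -0.45. Lss was split between 0.42 on a shared-sequence probe set, the one used for the gene, and -0.52 on another, so its direction depends on the probe set. The number of probe sets called higher was 4 without activated replicate 2, 5 without naive replicate 2 and 9 without activated replicate 3 or naive replicate 1.

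**Figure D4:**
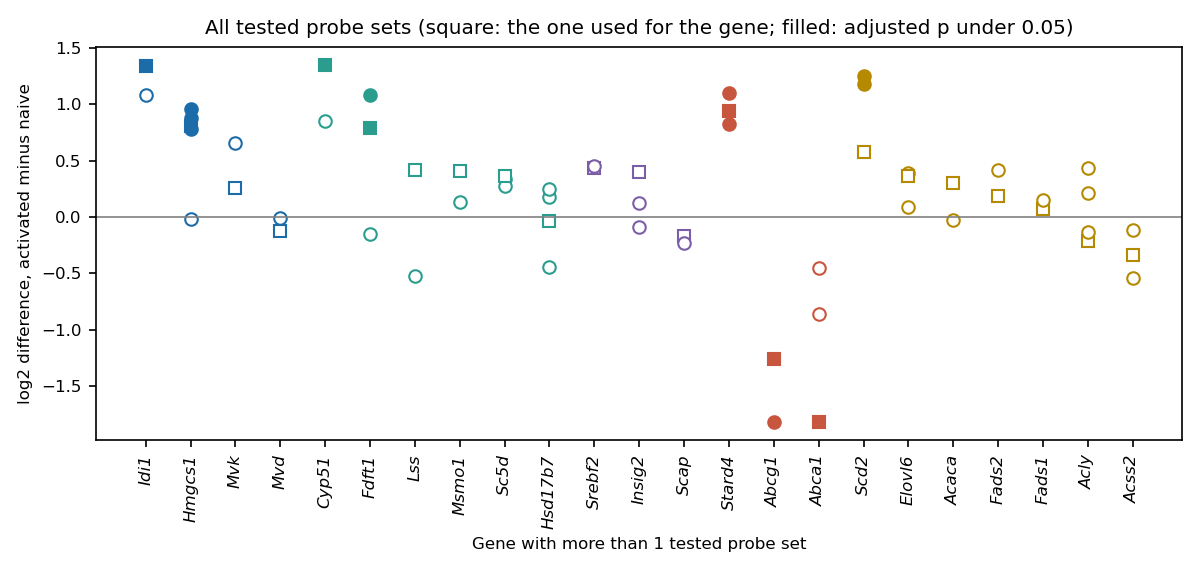
Log2 difference, activated minus naive, of every tested probe set of the genes with more than 1 (squares, the probe set used for the gene; circles, the others; filled, adjusted p under 0.05 over all probe sets). The probe sets of Stard4 and Abcg1 are all filled and on 1 side of 0, and those of Lss, Acly and Hsd17b7 lie on both sides.

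Other lipid genes were taken from 6 lists: sterol uptake and storage, SREBP processing, the isoprenoid branch, other fatty acid synthesis, glycerolipid synthesis and fatty acid oxidation. Of their 115 tested genes 5 rose and 6 fell, or 4.35% and 5.22%, near the background, with a median log2 difference of -0.03. Among 14 tested genes of sterol uptake and storage 1 rose and 2 fell, with a median of -0.24. Mylip, a ubiquitin ligase for lipoprotein receptors that is a known LXR target, had 363.0, 342.3 and 349.5 against 1046.1 and 990.6. It fell by 1.49 on the log2 scale (SE 0.15, adjusted p = 1.4e-04, limma). Its log2 difference was -1.53 to -1.45 in the fits that left out 1 array. Whether LXR activity differed between the groups was not tested. Lipa, the lysosomal lipase that frees cholesterol from its esters, fell by 0.94, and the lipoprotein receptor Scarb1 rose by 0.81. Nr1h3, which encodes an LXR, was dim and overlapped, at 26.8 to 43.4 against 52.9 and 29.4.

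The machinery around SREBP and the lipid routes beside it showed few calls. Of 16 tested genes of SREBP processing and transport 0 rose and 0 fell in limma's test, with 4 at an unadjusted p under 0.05. Of 16 in the isoprenoid branch 0 rose and 1 fell, the ubiquinone enzyme Coq2, by 0.76, and of 23 in glycerolipid synthesis 0 rose and 1 fell, Pgs1, by 0.69. That value of Pgs1 comes from a shared-sequence probe set, and without such probe sets the gene lay at -0.26. Of 24 other genes of fatty acid synthesis, Cbr4, of mitochondrial synthesis, rose by 0.78 and the elongase Elovl7 fell by 0.98. Fatty acid oxidation, the opposite route, had 3 rises and 1 fall among 22 tested genes. Decr1, the mitochondrial dienoyl-CoA reductase, rose by 1.55 from 35.3 and 63.6 to 133.1, 169.2 and 220.5, and kept its call in all 5 fits that left out 1 array. The electron carrier subunit Etfb rose by 0.67 and the trifunctional protein subunit Hadha by 0.58, and both lost their calls in each of those fits, at 0.62 to 0.74 and 0.50 to 0.64. The coactivator Ppargc1b fell by 0.97, a call lost without naive replicate 2 at -0.88. Lipa lost its call without activated replicate 2 (-0.88) or naive replicate 2 (-0.70), Cbr4 in 3 of the 5 fits, and Coq2, Elovl7, Pgs1 and Scarb1 in 4 of 5. Over these lists leaving out an activated array gave 2 higher and 5 lower (replicate 1), 1 higher and 2 lower (replicate 2) or 3 higher and 6 lower (replicate 3). Leaving out a naive array gave 1 higher and 4 lower (replicate 1) or 1 higher and 1 lower (replicate 2).

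Markers and array quality were set beside these results. The 10 T cell markers with a probe set lay above the filter on every array, with a summed intensity of 18096.5 to 19985.4 in activated and 16762.1 and 17420.4 in naive cells. Of these 10, Cd5 and Cd6 rose (log2 differences 1.85 and 1.46) and Thy1 fell (-0.79). Macrophage and monocyte transcripts were higher in sum on activated replicates 1 and 3, though not for every marker. Without Ctss, which lay between 1909.8 and 2322.6 on every array, the summed intensity of the other 13 markers was 2873.2, 159.3 and 1169.4 on the activated arrays, where the naive cells gave 429.1 and 262.3. Lyz2 alone gave 1953.9, 35.8 and 353.6 against 118.2 and 60.3, and Csf1r 460.0, 17.5 and 187.7 against 81.2 and 38.7. Cd163 and Marco, at 1.2 and 1.1 on activated replicate 1, lay below both naive arrays there. On activated replicate 1 the sum was also above all other arrays for granulocyte and mast cell markers (968.7, elsewhere 80.2 to 128.7) and for dendritic cell markers (352.7, elsewhere 88.7 to 131.9). S100a8 (457.0) and S100a9 (378.7) made up most of the first sum, and Ccl22 (117.8) and Itgax (98.4) much of the second. Some dimmer markers lay otherwise: Mpo and Elane were brighter on naive replicate 1, and Zbtb46 and Xcr1 on both naive arrays. None of the 12 macrophage, 6 granulocyte and 6 dendritic cell markers tested by limma was called, with 1, 0 and 2 at an unadjusted p under 0.05. Leaving out activated replicate 1 gave 6 members higher and 2 lower. With activated replicate 2 alone against the naive arrays, assumed to vary like them, 3 members were higher (Idi1, Cyp51 and Stard4) and 2 lower. There Hmgcs1 lay at 0.91, Fdps at 1.11 and Fdft1 at 0.88 without a call, and Abca1 and Abcg1 kept theirs at -2.31 and -1.25.

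Some markers of other cells and tissues also moved with the groups. Among 6 tested NK cell markers Eomes and Klrc1 rose. Without a call, Prf1 lay at -1.48, Klra7 at -0.26 and Klrd1 at -0.01. Ncr1, also not called, had 265.3, 9.9 and 5.9 against 5.6 and 11.2. The summed NK cell markers gave 1843.4 on activated replicate 1 and 695.0 to 966.0 elsewhere. Among 8 tested markers of B and plasma cells Tnfrsf13b rose, while the B cell genes Ms4a1 and Cd79a stayed at 15.2 or less. Pax5 reached 27.5 and Jchain 31.0, with overlapping groups. Sdc1, a plasma cell marker, went the other way without a call, with 7.8, 4.8 and 1.5 against 21.2 and 21.1 (log2 difference -0.86). Of 5 tested exocrine pancreas markers Ctrb1 fell, with 1.4, 4.2 and 1.5 against 22.6 and 24.0. Cel, Cela1 and Cela2a also lay below both naive arrays without a call, and Prss2 lay above both. Of the 8 adipocyte markers with a probe set 7 lay below the filter on every array, Adipoq at 9.7 or less. The other one, Lpl, had 45.0, 13.9 and 27.9 against 13.9 and 2.4, a log2 difference of 0.88 that was not called. The part of these transcripts in the results was not tested. The ratio of the 3′ to the 5′ actin control probe set, a sign of RNA integrity, was 1.19 to 1.29 in activated and 1.42 and 1.78 in naive cells, so it went with the groups, and its part in the results was not tested. The arrays also split by the bioC hybridisation control, at 579 to 664 on activated replicates 1 and 2 and naive replicate 1 and at 148 and 181 on activated replicate 3 and naive replicate 2. The 6 rises lay between 0.83 and 1.36 on the log2 scale on the first side and between 0.75 and 1.51 on the second, and the falls at -1.58 and -1.96 for Abca1 and -1.18 and -1.36 for Abcg1. Tested on the first side alone, with 1 naive array, Idi1, Fdps, Cyp51 and Abcg1 kept their calls, and the second side holds 1 array a group and allows no test.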

How the data were processed

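Total RNA from 5 samples (6 µg each, extracted with Trizol) was made into biotin-labelled cRNA and hybridised, per the labels' protocols. The deposited table holds 1 linear intensity per probe set and array. For scanner software and summary method, the sources used here name none. Every array had a 2% trimmed mean of 100.0, so a difference is read against the mean of its array.

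By the platform's annotation 34945 probe sets had 1 symbol, 932 several, 9160 none and 64 were controls. Of the first kind, 34741 had an Entrez ID in the RefSeq gene table of GRCm38.p6. One probe set that names Acss2 together with another gene was not used. For each gene the probe set with the highest mean was taken. Values were log2(intensity + 16); array medians differed by under 0.5, so no quantile step was added. Genes entered the test when 2 or more arrays exceeded their own 40th percentile. limma 3.58.1 (R 4.3.3) was fitted with the group as its only term, eBayes with a trend, two-sided, threshold 0.05. The bioC split was found in the data, and the fits within its sides and with activated replicate 2 alone were chosen after seeing the data. The code was tested on simulated data. The members, gene lists and rule for names (all members; in each other list the 2 largest rises and falls among called genes) were chosen with earlier results of these data known. Other names, and the start regions of Idi1 and Cyp51, were added after their values were seen. Protein sequences were not used here. The labels call the arrays biological replicates from independent experiments. No pair of arrays shared more than 0.947% of its values.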

Additional observations from a re-analysis of the deposited data

How the results depend on the processing

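Over 18 alternatives, the bioC block and the replicate block included, the members called higher numbered 4 to 7 and those called lower 2 throughout. Over all 20 tested alternatives, 2 of them added after seeing the data, Idi1 and Abcg1 kept their direction and call, and Fdft1 lost its call in 9, including no filter (0.79), median centring (0.79) and eBayes without the trend (0.79). Within the bright bioC side alone, an alternative chosen after seeing the data that leaves 1 naive array, assumed to vary like the others, 3 members were higher and 1 lower, and Hmgcs1, Fdft1, Stard4 and Abca1 lost their calls. With activated replicate 2 as the lone activated array, also chosen after seeing the data, 3 members were higher, and in the other lipid lists 1 gene was higher and 1 lower. Leaving out a naive array likewise leaves 1 in its group.

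The median log2 difference of the members was 0.41 with a pseudocount of 1, 0.28 with 64, 0.28 with averaged probe sets, 0.31 within the bright bioC side and 0.33 to 0.38 on leaving out 1 array. Probe sets of members called higher numbered 9 with no filter and 4 to 10 on leaving out 1 array. In the other lipid lists the genes called higher numbered 2 with median centring, 3 with no filter, 3 without the trend, 1 within the bright bioC side and 1 to 3 on leaving out 1 array. Those called lower numbered 10 with the replicate block, 11 with the bioC block, 1 within the bright bioC side and 1 to 6 on leaving out 1 array.

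The groups share replicate numbers 1 and 2, and nothing else says that these pair the samples. Deviations from the group means, over tested genes, correlated at 0.17 for number 1 and -0.13 for number 2. The largest value, 0.31, was that of activated replicate 3 with naive replicate 2, the arrays with the dim bioC control. With 2 naive arrays their deviations mirror each other, so these values are not separate checks of each pair. With the replicate block 7 members were higher and 2 lower, the added one being Scd2.

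Signs turned for members that were not called: Mvd with the replicate block (0.0488) and on leaving out 1 array (-0.31 to 0.0488), Hsd17b7 with the bioC block (0.0149), without suffixed probe sets (0.25) and on leaving out 1 array (-0.16 to 0.0735), Lss without suffixed probe sets (-0.52), Acly with averaged probe sets (0.061), without suffixed probe sets (0.21) and on leaving out 1 array (-0.45 to 0.0181), Scap within the bright bioC side (0.35) and on leaving out 1 array (-0.67 to 0.33), Insig1 (-0.0222 to 0.32), Fads1 (-0.0202 to 0.16) and Fads2 (-0.0071 to 0.38) on leaving out 1 array. The cause was not tested. The intensities at the 40th percentile, 10.6 to 13.4, limit what can be read of Scd1 and Fads2.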
